A study of Homo sapiens with 8 samples.

Results

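Messenger RNAs of the eukaryotic translation initiation factors and of the 4 kinases that phosphorylate eIF2 were followed in KYSE150, a human esophageal squamous cell carcinoma line. Members were every gene whose symbol begins with EIF, a digit from 1 to 6 and further capital letters or digits, together with the 3 eIF4E-binding proteins, and pseudogenes were left out. The rule found 56 genes among the 61517 listed, and 77 EIF pseudogenes were set aside. Of the 56, 54 passed the filter on low counts and were tested. EIF4E1B, a relative of the cap-binding protein, had 0 counts in each of the 8 libraries. EIF1AY, a Y-linked eIF1A gene, was not evaluated here.

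Poly(A)-selected RNA was sequenced from 4 groups of KYSE150 cells with 2 libraries each. The groups were hypoxia with sodium oxamate and NALA, hypoxia with sodium oxamate, hypoxia alone, and normoxia, and no genetic change is named in the labels. NALA is taken to mean sodium lactate, which the treatment protocol names. Oxamate is a pyruvate analogue that inhibits lactate dehydrogenase, and lactate is that enzyme's product. For oxygen level, dose and duration the sources used here give no value. All libraries come from this 1 cultured line, and the labels do not state that the 2 libraries of a group are separate cultures. P-values therefore reflect the spread between libraries, which could be purely technical.

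Initiation begins when eIF2, bound to GTP and the initiator tRNA, joins the small ribosomal subunit with eIF1, eIF1A, eIF3 and eIF5. The eIF4F complex (the cap-binding eIF4E, the scaffold eIF4G and the helicase eIF4A) brings that assembly to the capped end of an mRNA. Cells slow initiation in 2 well-known ways. Kinases of eIF2 turn it into an inhibitor of its own exchange factor, eIF2B, and hypophosphorylated eIF4E-binding proteins take eIF4E away from eIF4G when mTORC1 activity is low. Hypoxia is known to engage both routes through protein phosphorylation, which mRNA counts do not report.

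Total counts lay between 21845676 and 29406061 per library. CPM values below are counts scaled to library size by TMM, a method that corrects library sizes for differences in composition, and each fold change is the log2 ratio from edgeR's quasi-likelihood model with its standard error. A gene passed at a Benjamini-Hochberg adjusted p under 0.05 over the 15554 genes tested. The summed CPM of 9 epithelial and squamous markers (all 9 tested) was 8677 and 8768 with oxamate and NALA, 13025 and 12926 with oxamate, 4289 and 4253 in hypoxia and 6729 and 6731 in normoxia. The sums follow the abundant keratins, lowest in hypoxia and highest with oxamate. CDH1 and TP63 of the same list went otherwise. CDH1 had 318 and 326 CPM with oxamate and NALA, 259 and 265 with oxamate, 561 and 555 in hypoxia and 230.2 and 229 in normoxia, and TP63 had 175 and 173 with oxamate and NALA, 80.9 and 78.9 with oxamate, 245 and 247 in hypoxia and 128 and 122 in normoxia. The part of these markers in the members' changes was not tested. Leukocyte markers summed to at most 1.06 CPM, and fibroblast and endothelial markers to at most 8.82 CPM, in hypoxia, with PDGFRA and COL3A1 at 0. CA9, a standard hypoxia-induced gene, rose in hypoxia against normoxia (5.26 on the log2 scale) and fell with oxamate against hypoxia (-4.93). With NALA the checks of the treatments differed. CA9 had 17.2 and 19.8 CPM with oxamate and NALA, 8.71 and 7.40 with oxamate and 243 and 248 in hypoxia. VEGFA had 76.9 and 80.8, 15.1 and 17.3, and 82.3 and 81.6 CPM in the same groups. LDHA had 4526 and 4347, 2624 and 2611, and 5657 and 5656 CPM.

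Most initiation factor mRNAs were lower in hypoxia than in normoxia and higher with oxamate than in hypoxia alone. In hypoxia 13 members rose, 35 fell and 6 did not pass, with a median log2 change of -0.46. Over all tested genes 36.7% rose and 36.8% fell, and the median was 0.02. These shares, and those given below for the other comparisons, are the background for the smaller lists as well. Falls of at least 2-fold were seen in 14 members, where 13.1% of all genes fell that far. With oxamate 42 members rose, 9 fell and 3 did not pass, with a median of 0.86. Among all genes 35.7% rose and 44.8% fell with oxamate, and the median was -0.20. The 9 that fell became 4 without oxamate replicate 1, 3 without oxamate replicate 2 and 5 with DESeq2. Increases of at least 2-fold were found in 24 of the 54 members, where 14.3% of all genes rose that far.

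Adding NALA to oxamate left a smaller and mixed difference. Here 14 members rose, 27 fell and 13 did not pass, with a median of -0.18, beside 33.2% rising, 31.7% falling and a median of -0.02 over all genes. With upper quartile scaling, which moved the median of all genes to -0.21, the split was 9 higher and 37 lower, and without oxamate replicate 1 the number higher was 9. No member fell by 2-fold or more (4.49% of all genes did), and the 3 that rose that far were EIF1AD, EIF2AK3 and EIF4ENIF1 (14.7% of all genes rose that far). Hypoxia with oxamate against normoxia, groups that differ in both oxygen and drug, had 39 members higher, 12 lower and 3 not passing, with a median of 0.57. At least 2-fold higher were 12 of them (7.32% of all genes) and at least 2-fold lower were 4 (20.2%). In that comparison 31.9% of all genes rose, 40.1% fell and the median was -0.14. The hypoxia libraries serve in 2 of these comparisons, the normoxia libraries in 2 and the oxamate libraries in 3, so the comparisons are not independent of each other. Counts of passing genes rest on a small spread between libraries, and 73.5%, 80.5%, 64.9% and 72.0% of all tested genes passed in either direction in the 4 comparisons in the order given.

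As a sum, the members were also lowest in hypoxia and highest with oxamate in shares of total counts, which use no TMM factor. The 54 members together took 1.99% and 1.98% of all counts with oxamate and NALA, 2.21% and 2.20% with oxamate, 1.45% and 1.46% in hypoxia and 1.83% and 1.83% in normoxia. The 4 groups did not overlap. Abundant members weigh most in this sum, and not every role followed it. The 4 eIF2 kinases took 0.0490% and 0.0482% in hypoxia and 0.0431% and 0.0436% with oxamate. The eIF4E repressors took 0.0355% and 0.0354% in hypoxia, their highest share. The other roles were lower in hypoxia than in normoxia and higher with oxamate than in hypoxia. With TMM scaling, hypoxia held the lowest of the 4 group means for 30 members (55.6%, against 27.1% of all tested genes), and oxamate held the highest for 26 (48.1%, against 22.5%). Only 2 members, EIF4EBP1 and EIF4E3, had their highest mean in hypoxia (3.7%, against 32.2% of all genes).

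**Figure D1:**
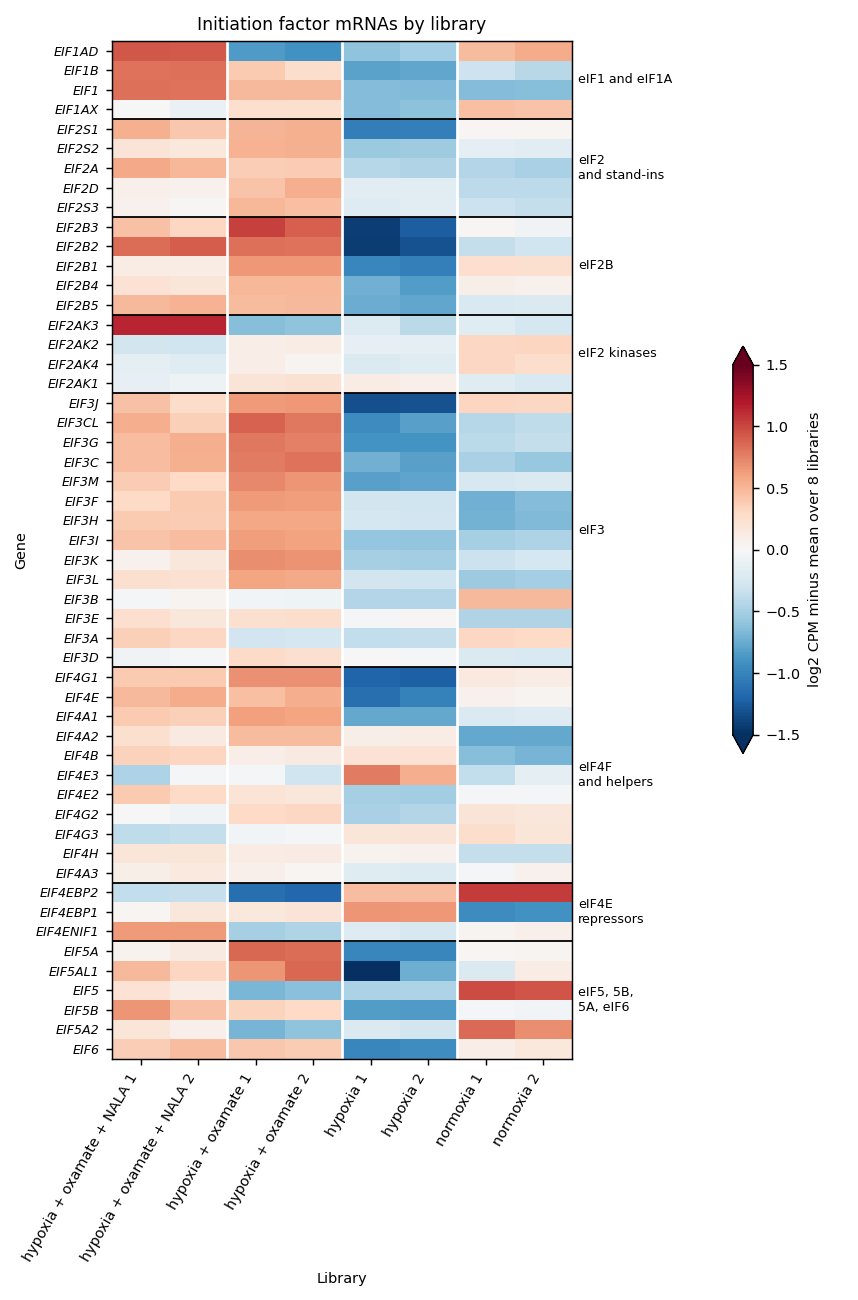
Each row is a member and each column a library, and colour gives log2 CPM minus that member's mean over the 8 libraries, clipped at the ends of the scale. The 52 members averaging at least 1 CPM are drawn (EIF4EBP3 and EIF2S3B fall below it). Most rows are blue in the hypoxia columns and red in the oxamate columns, and EIF4EBP1, EIF4EBP2, EIF2AK3, EIF5 and EIF1AD depart from that.

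In the cap-binding complex, the mRNAs of EIF4E, EIF4G1 and EIF4A1 fell in hypoxia and rose with oxamate. EIF4G1 (the scaffold that links eIF4E, eIF4A and eIF3; chr3:184314495-184335358 in GENCODE 29 on GRCh38, plus strand) had 1196 and 1200.3 CPM with oxamate and NALA, 1464 and 1470.2 with oxamate, 398 and 389 in hypoxia and 1014 and 989 in normoxia. The groups did not overlap, and the 2 hypoxia libraries were the lowest. Its mRNA fell 2.54-fold in hypoxia against normoxia (log2 change -1.35 ± 0.027, adjusted p = 6.19e-21) and rose 3.73-fold with oxamate against hypoxia (1.90 ± 0.028, adjusted p = 1.76e-23). With NALA against oxamate its log2 change was -0.29 ± 0.027, which passed.

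EIF4E, which binds the cap (chr4:98871684-98930637, minus strand), had 103 and 108 CPM with oxamate and NALA, 100.1 and 107 with oxamate, 33.4 and 36.4 in hypoxia and 76.9 and 75.3 in normoxia. Hypoxia libraries were lowest, normoxia next, and the 4 oxamate-treated libraries interleaved. The log2 change was -1.12 ± 0.053 in hypoxia against normoxia and 1.57 ± 0.052 with oxamate against hypoxia, both passing, and 0.03 with NALA, which did not pass (adjusted p = 0.558). With upper quartile scaling the NALA value of EIF4E was -0.16 and passed as lower. EIF4E2, a cap-binding relative, had 134 and 126 CPM with oxamate and NALA, 118 and 116 with oxamate, 72.7 and 71.4 in hypoxia and 101 and 100.2 in normoxia. It moved in the same directions as EIF4E, by -0.48 in hypoxia and 0.69 with oxamate. EIF4E3, another cap-binding relative, was scarce at 2.64 and 3.59 CPM with oxamate and NALA, 3.60 and 2.95 with oxamate, 6.24 and 5.31 in hypoxia and 2.83 and 3.29 in normoxia. It went the other way, with 0.91 ± 0.18 in hypoxia and -0.82 ± 0.18 with oxamate.

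The 2 cytoplasmic eIF4A helicase genes parted in hypoxia. EIF4A1 had 2974 and 2911 CPM with oxamate and NALA, 3463 and 3414 with oxamate, 1329 and 1329 in hypoxia and 1956 and 1987 in normoxia. EIF4A2, its close paralog, had 683 and 633 CPM with oxamate and NALA, 799 and 804 with oxamate, 614 and 623 in hypoxia and 339 and 340.1 in normoxia. Normoxia was the lowest group for EIF4A2 and hypoxia the lowest for EIF4A1. In hypoxia EIF4A1 fell (-0.57 ± 0.025) while EIF4A2 rose (0.87 ± 0.032), and with oxamate both rose (1.37 ± 0.026 and 0.37 ± 0.032). The count ratio of EIF4A1 to EIF4A2 within a library was 4.36 and 4.60 with oxamate and NALA, 4.33 and 4.24 with oxamate, 2.16 and 2.13 in hypoxia and 5.77 and 5.84 in normoxia, without correction for length.

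EIF4B, which stimulates eIF4A, also rose in hypoxia. It had 1079 and 1054 CPM with oxamate and NALA, 907 and 926 with oxamate, 982 and 981 in hypoxia and 546 and 524 in normoxia. Its increase in hypoxia was 0.88 ± 0.029. The log2 change with oxamate, -0.10, passed in the model of all groups but was 0.01 when the 2 groups were fitted alone and 0.03 without oxamate replicate 1. EIF4H, the other stimulator of eIF4A, rose by 0.42 in hypoxia and did not pass with oxamate.

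The scaffold paralogs differed as well. EIF4G2 (DAP5), which lacks the eIF4E-binding site, fell in hypoxia (-0.64 ± 0.028) and rose with oxamate (0.77 ± 0.028), with 1146 and 1103 CPM under oxamate and NALA, 1407 and 1414 under oxamate, 817 and 842 in hypoxia and 1303 and 1287 in normoxia. EIF4G3, the second eIF4E-binding scaffold, had 44.8 and 45.7 CPM with oxamate and NALA, 56.7 and 57.7 with oxamate, 66.2 and 66.7 in hypoxia and 70.0 and 66.4 in normoxia. Its hypoxia and normoxia libraries overlapped, and its hypoxia change of -0.04 did not pass (adjusted p = 0.486). The ratio of EIF4G1 to EIF4G3 counts was 26.7 and 26.3 with oxamate and NALA, 25.8 and 25.5 with oxamate, 6.01 and 5.83 in hypoxia and 14.5 and 14.9 in normoxia. Over the 11 tested eIF4F members and helpers, 4 rose and 6 fell in hypoxia (median -0.22), and 7 rose and 3 fell with oxamate (median 0.37). With NALA 3 rose and 5 fell (median -0.06). Those that rose were EIF4B (0.22), EIF4E2 (0.15) and EIF4H (0.07), and with upper quartile scaling they were at 0.03, -0.04 and -0.12, none passing as higher and EIF4H passing as lower. Without oxamate replicate 1 or 2, EIF4E2 was at 0.07 and 0.04 and EIF4H at -0.04 and -0.02, none passing. EIF4A3, the helicase of the exon junction complex, had log2 changes of only -0.22 and 0.25 in hypoxia and with oxamate.

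**Figure D2:**
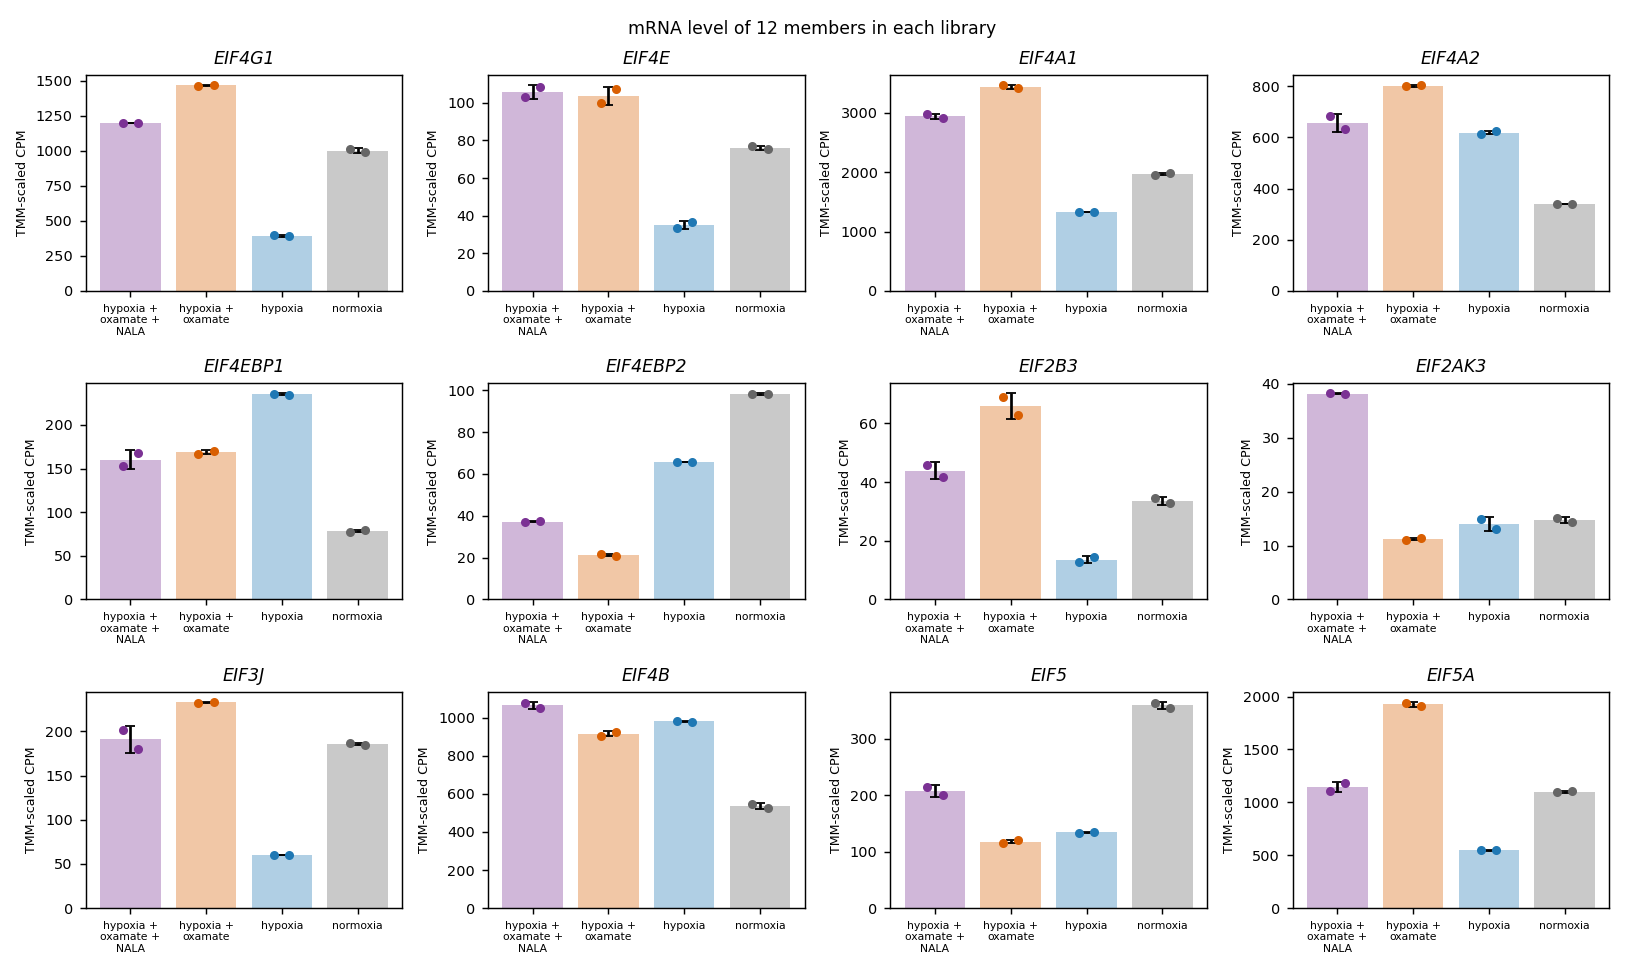
TMM-scaled CPM of 12 members, with points for the 2 libraries, bars for the group mean and whiskers of ± 1 SD, each panel with its own axis from 0. EIF4G1, EIF4E, EIF4A1, EIF2B3, EIF3J and EIF5A were lowest in hypoxia, EIF4EBP1 was highest there, and EIF2AK3 stood at 38.2 and 38.1 CPM with NALA and below 16 CPM elsewhere.

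Among the repressors of eIF4E, the 2 abundant 4E-BP genes went opposite ways in hypoxia. EIF4EBP1 (4E-BP1) had 153 and 168 CPM with oxamate and NALA, 167 and 170.5 with oxamate, 236 and 234 in hypoxia and 77.5 and 79.5 in normoxia. It was highest in both hypoxia libraries and lowest in both normoxia libraries. The increase in hypoxia was 2.99-fold (log2 1.58 ± 0.041, adjusted p = 4.80e-19), and its log2 change with oxamate was -0.48 ± 0.039, a passing fall. With NALA its change was -0.07 and did not pass (adjusted p = 0.12), although it passed as lower under 4 other settings, at -0.26 with upper quartile scaling. The value was -0.19 without oxamate replicate 1, -0.16 without oxamate replicate 2 and -0.13 without NALA replicate 2.

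EIF4EBP2 (4E-BP2), at chr10:70404379-70428618 on the plus strand, had 36.9 and 37.3 CPM with oxamate and NALA, 21.6 and 21.0 with oxamate, 65.7 and 65.5 in hypoxia and 98.1 and 98.5 in normoxia. The groups did not overlap. It fell in hypoxia (-0.58 ± 0.042), fell further with oxamate (-1.62 ± 0.052) and rose with NALA against oxamate (0.80 ± 0.058). Against normoxia, oxamate left it 4.61-fold lower, the largest fall of any member in that comparison.

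Set against the mRNA of their target, the binding proteins gave a ratio that was highest in hypoxia. EIF4EBP1 counts per EIF4E count were 1.48 and 1.55 with oxamate and NALA, 1.67 and 1.59 with oxamate, 7.06 and 6.44 in hypoxia and 1.01 and 1.06 in normoxia. For EIF4EBP2 they were 0.357 and 0.344 with oxamate and NALA, 0.216 and 0.196 with oxamate, 1.96 and 1.80 in hypoxia and 1.27 and 1.31 in normoxia. EIF4EBP1 counts per EIF4EBP2 count were 4.13 and 4.49 with oxamate and NALA, 7.72 and 8.12 with oxamate, 3.59 and 3.58 in hypoxia and 0.790 and 0.807 in normoxia. These ratios need no scaling between libraries, are not corrected for length, and were not tested.

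**Figure D3:**
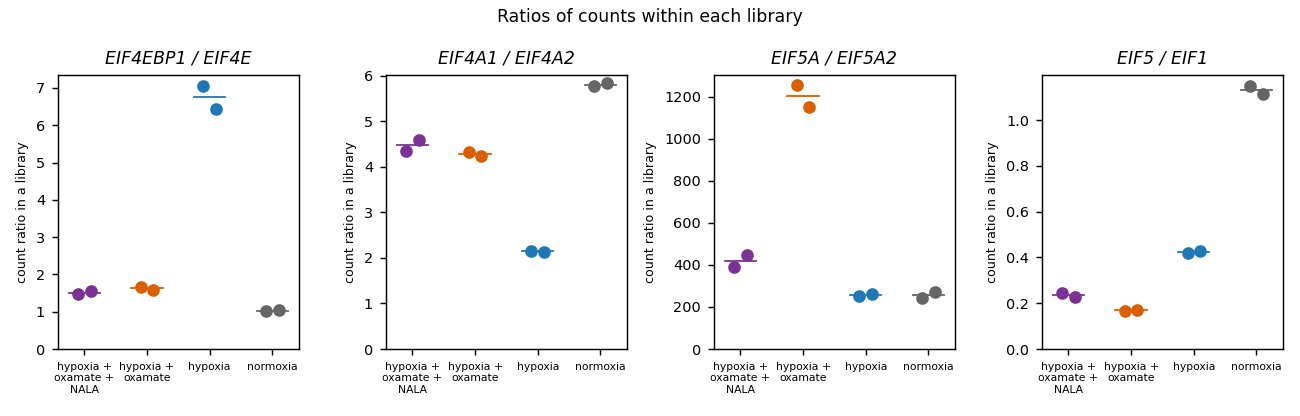
Ratios of raw counts of 2 members within each library, with a point per library and a line at the group mean, each panel with its own axis from 0. EIF4EBP1 per EIF4E is highest in hypoxia (7.06 and 6.44), EIF4A1 per EIF4A2 is lowest there, EIF5A per EIF5A2 is highest with oxamate, and EIF5 per EIF1 is highest in normoxia.

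EIF4ENIF1 (4E-T), which carries eIF4E into the nucleus and to processing bodies, had 39.9 and 39.9 CPM with oxamate and NALA, 18.2 and 18.7 with oxamate, 22.5 and 21.8 in hypoxia and 26.4 and 27.0 in normoxia. NALA raised it above all other groups, by 1.11 ± 0.067 against oxamate. Its fall with oxamate against hypoxia (-0.26) did not pass with DESeq2 or when either oxamate library was left out, with values as close to 0 as -0.13. EIF4EBP3 had 18 and 21 counts with oxamate and NALA, 15 and 16 with oxamate, 0 and 8 in hypoxia and 0 and 4 in normoxia. It shares 73.4% of its exon bases with the readthrough gene ANKHD1-EIF4EBP3 on the same strand, so these counts are uncertain. Its increase with oxamate (2.11 ± 0.8) did not pass without hypoxia replicate 1 (1.11) or without either oxamate library.

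Subunits of eIF2B, the guanine nucleotide exchange factor that recharges eIF2, moved together. All 5 fell in hypoxia (median -1.04) and all 5 rose with oxamate (median 1.65). With NALA 3 fell and 2 did not pass (median -0.30), and against normoxia all 5 were higher with oxamate (median 0.70). EIF2B3, the gamma subunit, had 45.9 and 41.9 CPM with oxamate and NALA, 69.0 and 62.8 with oxamate, 12.8 and 14.4 in hypoxia and 34.5 and 32.7 in normoxia. Its fall in hypoxia was 2.47-fold (-1.30 ± 0.077) and its 4.85-fold rise with oxamate (2.28 ± 0.072) was the largest of any member in that comparison.

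EIF2B2, the beta subunit, had 134 and 141 CPM with oxamate and NALA, 133 and 132 with oxamate, 28.1 and 30.5 in hypoxia and 58.8 and 61.4 in normoxia. Hypoxia was the lowest group, and the oxamate groups with and without NALA lay close together. The log2 changes were -1.04 ± 0.052 in hypoxia and 2.18 ± 0.049 with oxamate. With NALA the change of EIF2B2 did not pass (0.05), but with upper quartile scaling it was -0.14 and passed as lower. EIF2B1, the alpha subunit, had 119 and 119 CPM with oxamate and NALA, 172 and 173 with oxamate, 56.0 and 54.0 in hypoxia and 131 and 130.4 in normoxia, with -1.25 ± 0.039 in hypoxia and 1.65 ± 0.039 with oxamate. For EIF2B4 (delta) the changes were -0.85 and 1.27, and for the catalytic EIF2B5 (epsilon) -0.55 and 1.25. Summed over the complex, eIF2B mRNAs took 0.0422% and 0.0427% of counts with oxamate and NALA, 0.0486% and 0.0481% with oxamate, 0.0190% and 0.0189% in hypoxia and 0.0391% and 0.0392% in normoxia.

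The substrate of eIF2B was less uniform. EIF2S1, which encodes the alpha subunit that the kinases phosphorylate, had 311 and 286 CPM with oxamate and NALA, 307 and 312 with oxamate, 105 and 106 in hypoxia and 219 and 220.1 in normoxia. It fell in hypoxia (-1.06 ± 0.038) and rose with oxamate (1.55 ± 0.038). EIF2S2, the beta subunit, had 409 and 396 CPM with oxamate and NALA, 509.6 and 514 with oxamate, 242 and 246 in hypoxia and 323 and 318 in normoxia. It too fell in hypoxia (-0.39) and rose with oxamate (1.07). EIF2S3, the GTP- and tRNA-binding gamma subunit, rose in hypoxia (0.15) and with oxamate (0.66), so that alpha and gamma parted in hypoxia.

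EIF2D, which can deliver tRNA to the ribosome without eIF2, also rose in both comparisons (0.23 and 0.65). EIF2A, an alternative initiator tRNA-binding protein unrelated to the eIF2 alpha subunit, had 295 and 280.2 CPM with oxamate and NALA, 257 and 259 with oxamate, 147 and 145 in hypoxia and 147 and 142 in normoxia. Hypoxia and normoxia overlapped (0.02, adjusted p = 0.612), and EIF2A rose with oxamate (0.82). EIF2S3B, a retrocopy of EIF2S3, stayed near 1 CPM or lower and passed in none of the 4 comparisons. Counts of both can include reads of the other. Across these 6 genes 2 rose and 2 fell in hypoxia (33.3% each, against 36.7% and 36.8% of all tested genes, median 0.09). With oxamate 5 rose (83.3%, against 35.7%, median 0.74), and with NALA 1 rose and 3 fell (median -0.20). The 1 that rose was EIF2A (0.16), which did not pass without oxamate replicate 1 (0.05) or 2 (0.07) or under the stricter filter (0.04), and was at -0.03 with upper quartile scaling.

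The 4 eIF2 kinases had no common direction. EIF2AK3 (PERK), the kinase of the endoplasmic reticulum, had 38.2 and 38.1 CPM with oxamate and NALA, 11.1 and 11.4 with oxamate, 15.0 and 13.0 in hypoxia and 15.2 and 14.4 in normoxia. Both NALA libraries stood above the other 6, and hypoxia and normoxia overlapped. Its rise with NALA was 3.40-fold (1.76 ± 0.083, adjusted p = 2.09e-14), whereas hypoxia gave -0.08 (adjusted p = 0.428). The fall with oxamate (-0.32) did not pass with DESeq2 or without hypoxia replicate 1 or either oxamate library, with values as close to 0 as -0.19.

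EIF2AK2 (PKR), which senses double-stranded RNA, had 81.0 and 79.9 CPM with oxamate and NALA, 105 and 106 with oxamate, 89.7 and 88.8 in hypoxia and 121 and 123 in normoxia. EIF2AK4 (GCN2), which senses uncharged tRNA, had 71.2 and 69.8 CPM with oxamate and NALA, 84.7 and 81.2 with oxamate, 68.0 and 69.4 in hypoxia and 97.7 and 94.8 in normoxia. Normoxia was highest and the groups lay within a narrow range for both. Each fell in hypoxia (-0.45 and -0.49), rose with oxamate (0.24 and 0.27) and fell with NALA (-0.39 and -0.24). The rises with oxamate depended on correcting library sizes for composition. As shares of total counts, neither gene was higher with oxamate than in hypoxia. EIF2AK1 (HRI), the heme-regulated kinase, had 232 and 239.7 CPM with oxamate and NALA, 289.9 and 297 with oxamate, 275 and 268 in hypoxia and 224 and 216 in normoxia. It was the kinase that rose in hypoxia (0.30 ± 0.033), and its 0.12 with oxamate passed in the model used. That call did not pass with upper quartile scaling (0.05) or with no low-count filter (0.09). As a share of total counts, EIF2AK1 was lower with oxamate than in hypoxia. Per kilobase of exon, a crude measure that counts every annotated exon, EIF2AK1 averaged 42.5 CPM with oxamate and NALA, 52.9 with oxamate, 48.8 in hypoxia and 39.6 in normoxia. EIF2AK3 averaged 7.02 CPM per kilobase with oxamate and NALA, 2.06 with oxamate, 2.58 in hypoxia and 2.72 in normoxia.

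Genes that act on these kinases or their target, and mTORC1 and MNK signalling genes, formed a list of 19, of which 5 rose and 13 fell in hypoxia (median -0.25). With oxamate 12 rose and 5 fell (median 0.63), and with NALA 7 rose and 11 fell (median -0.25). PPP1R15A (GADD34), the inducible subunit that dephosphorylates eIF2, rose in hypoxia (1.00), with oxamate (2.10) and with NALA (0.83). PPP1R15B, the constitutive subunit, fell in hypoxia (-0.68) and rose in the other 2 (0.80 and 0.48). MKNK2, a kinase of eIF4E, rose in hypoxia (3.39), fell with oxamate (-2.99) and rose with NALA (2.05).

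MTOR, the kinase that phosphorylates the 4E-BPs, fell in hypoxia (-1.38) and PPM1G, a phosphatase that acts on 4E-BP1, fell there too (-0.89). PPM1G rose with oxamate (2.11). DNAJC3 (p58IPK), an inhibitor of PKR and PERK, fell with oxamate (-0.87) and rose with NALA (1.08). The largest falls with NALA were -0.83 for IMPACT, an inhibitor of GCN2, and -0.63 for OMA1, a mitochondrial protease upstream of HRI. Oxamate against normoxia gave the largest rises in PPP1R15A (3.10) and RPS6 (1.28), a ribosomal protein phosphorylated downstream of mTORC1, and the largest falls in DNAJC3 (-1.07) and RPTOR (-0.94), a subunit of mTORC1.

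The 13 tested transcripts of the integrated stress response, the programme that follows eIF2 phosphorylation, did not share a direction either. In hypoxia 4 rose and 8 fell (median -0.36), with oxamate 6 rose and 5 fell (median -0.38), and with NALA 8 rose and 4 fell (median 0.69). ATF4, its central transcription factor, had log2 changes of -0.36, 1.31 and 0.46 in those comparisons. DDIT3 (CHOP), a target of ATF4, had 38.7 and 38.9 CPM with oxamate and NALA, 3.76 and 4.41 with oxamate, 10.1 and 9.78 in hypoxia and 5.32 and 6.04 in normoxia. Its 2 NALA libraries were above all others, and its rise with NALA was 3.25 ± 0.1. The amino acid synthesis genes PSAT1 and ASNS, also targets of ATF4, fell with NALA (-1.79 and -0.87).

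ATF3, a stress-induced factor, rose with oxamate against hypoxia (2.83) and against normoxia (4.44). ATF5, translated under stress in the manner of ATF4, fell in hypoxia (-2.47) and rose with oxamate (2.22). VLDLR, a lipoprotein receptor gene, rose in hypoxia (2.69) and fell with oxamate (-3.88), and TRIB3 was lower with oxamate than in normoxia (-1.96). CHAC1, a glutathione-degrading enzyme, had 2 and 6 counts with oxamate and NALA, 0 and 0 with oxamate, 5 and 1 in hypoxia and 24 and 34 in normoxia, and no fold is given for so few. NUPR1 had 12 and 19 counts in hypoxia and 4 and 1 in normoxia, and its rise did not pass without normoxia replicate 2 or hypoxia replicate 2.

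The eIF3 complex, which bridges the small subunit and eIF4G, went both ways in hypoxia and, with TMM scaling, one way with oxamate. In hypoxia 5 of 14 rose and 9 fell (median -0.23). With oxamate all 14 rose (median 1.06), although EIF3A at 0.08 did not pass with upper quartile scaling (0.02), with no low-count filter (0.06), against a fold of 1.5, or without normoxia replicate 2 or either hypoxia library. As shares of total counts, EIF3A, EIF3D and EIF3E were lower with oxamate than in hypoxia, and the other subunits were higher. NALA lowered 11 and raised 1 (median -0.29), and against normoxia oxamate left 12 higher and 2 lower (median 1.04).

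EIF3J, a loosely bound subunit, had 202 and 180.4 CPM with oxamate and NALA, 232 and 233 with oxamate, 59.9 and 60.1 in hypoxia and 187 and 185 in normoxia. Hypoxia stood far below the rest, and the fall of 3.10-fold (-1.63 ± 0.045) was the largest of any member in hypoxia. Oxamate raised it 3.88-fold (1.96 ± 0.045). EIF3G, which carries an RNA-recognition motif, had 471 and 498 CPM with oxamate and NALA, 593 and 577 with oxamate, 184 and 185 in hypoxia and 259.8 and 268 in normoxia, with -0.52 ± 0.034 in hypoxia and 1.67 ± 0.034 with oxamate. EIF3C had 1531 ± 31.8 CPM with oxamate against 518 ± 25.8 in hypoxia (SD, n = 2), and EIF3CL, its near-identical copy, had 327 and 286 CPM with oxamate and NALA, 413 and 387 with oxamate, 116 and 127 in hypoxia and 167 and 171 in normoxia. Reads of these 2 genes cannot be assigned with certainty.

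EIF3F, EIF3H, EIF3E, EIF3L and EIF3D were the subunits that rose in hypoxia, by 0.40, 0.41, 0.45, 0.25 and 0.21. EIF3F and EIF3H are the pair with MPN domains. The RNA-binding core subunits EIF3A and EIF3B fell in hypoxia (-0.67 and -0.93) and rose little with oxamate (0.08 and 0.39). They were also the 2 that stayed below normoxia with oxamate (-0.58 and -0.54). EIF3A was the subunit that rose with NALA (0.61). EIF3I, EIF3K and EIF3M had -0.10, -0.21 and -0.58 in hypoxia and 1.20, 1.20 and 1.49 with oxamate, and the hypoxia call of EIF3I did not pass with upper quartile scaling (0.002).

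Factors that select the start codon and join the subunits included several that departed from the common pattern. EIF5, the GTPase activator of eIF2, had 214 and 199.9 CPM with oxamate and NALA, 115 and 119.8 with oxamate, 133 and 135 in hypoxia and 363 and 355 in normoxia. Normoxia was highest, and the 2 oxamate libraries were the lowest. The fall in hypoxia was -1.42 ± 0.037 and NALA gave a rise of 0.81 ± 0.039. Its log2 change with oxamate against hypoxia was -0.19, which did not pass without oxamate replicate 1 (-0.05) or 2 (-0.11).

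EIF1, the start-codon fidelity factor that opposes EIF5, had 883 and 873 CPM with oxamate and NALA, 697 and 699 with oxamate, 317 and 313 in hypoxia and 316 and 318 in normoxia. Hypoxia and normoxia were within each other's range (-0.01, adjusted p = 0.793), and the rises with oxamate (1.15 ± 0.028) and NALA (0.33 ± 0.027) passed. With upper quartile scaling the hypoxia value was 0.10 and passed. EIF5 counts per EIF1 count were 0.243 and 0.229 with oxamate and NALA, 0.166 and 0.171 with oxamate, 0.420 and 0.429 in hypoxia and 1.15 and 1.11 in normoxia.

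EIF1B, a paralog of EIF1, had 67.9 and 68.7 CPM with oxamate and NALA, 50.8 and 46.5 with oxamate, 22.2 and 22.4 in hypoxia and 31.2 and 28.99 in normoxia, with -0.43 ± 0.065 in hypoxia and 1.13 ± 0.062 with oxamate. EIF1AX, the X-linked eIF1A, had 131 and 123 CPM with oxamate and NALA, 157 and 156 with oxamate, 83.5 and 86.2 in hypoxia and 179 and 176 in normoxia. It fell in hypoxia (-1.07 ± 0.039) and rose with oxamate (0.88 ± 0.04). EIF1AD, an eIF1A-domain protein of ribosome assembly, had 54.8 and 54.6 CPM with oxamate and NALA, 16.0 and 15.3 with oxamate, 18.9 and 20.2 in hypoxia and 40.1 and 42.3 in normoxia. NALA raised it 3.50-fold (1.81 ± 0.066, adjusted p = 2.76e-16), the largest rise of any member in that comparison. The oxamate value of EIF1AD, -0.32, did not pass without oxamate replicate 2 (-0.19).

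EIF5A, the hypusine-bearing factor that assists elongation and termination, had 1109 and 1179 CPM with oxamate and NALA, 1942 and 1909.8 with oxamate, 544 and 546 in hypoxia and 1094 and 1105 in normoxia. It fell 2.02-fold in hypoxia (-1.01 ± 0.03) and rose 3.53-fold with oxamate (1.82 ± 0.03), and its fall with NALA (-0.75 ± 0.029) was the largest of any member. EIF5A2, a paralog at low level here, had 2.85 and 2.65 CPM with oxamate and NALA, 1.55 and 1.66 with oxamate, 2.17 and 2.08 in hypoxia and 4.54 and 4.08 in normoxia. It fell in hypoxia as well (-1.02 ± 0.2) and its -0.41 with oxamate did not pass (adjusted p = 0.102). EIF5A counts per EIF5A2 count were 389.7 and 445 with oxamate and NALA, 1254 and 1151 with oxamate, 251 and 263 in hypoxia and 241 and 271 in normoxia. EIF5AL1, a retrocopy whose counts can include EIF5A reads, had 1.88 and 1.67 CPM with oxamate and NALA, 2.13 and 2.43 with oxamate, 0.475 and 0.810 in hypoxia and 1.15 and 1.45 in normoxia.

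EIF5B, the GTPase of subunit joining, fell in hypoxia (-0.82) and rose with oxamate (1.17). EIF6, which keeps the large subunit from joining early, had 379 and 403 CPM with oxamate and NALA, 388 and 382 with oxamate, 149 and 154 in hypoxia and 314 and 327 in normoxia, with -1.09 ± 0.036 in hypoxia and 1.35 ± 0.036 with oxamate. All 6 genes of this group fell in hypoxia (median -1.02), and 4 rose and 1 fell with oxamate (median 1.26). The hypoxia call of EIF5AL1 was lost without normoxia replicate 2 (-0.84) or hypoxia replicate 1 (-0.69). The 4 tested eIF1 and eIF1A genes had 3 lower and none higher in hypoxia (median -0.75), then 3 higher and 1 lower both with oxamate (median 1.00) and with NALA (median 0.41).

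**Figure D4:**
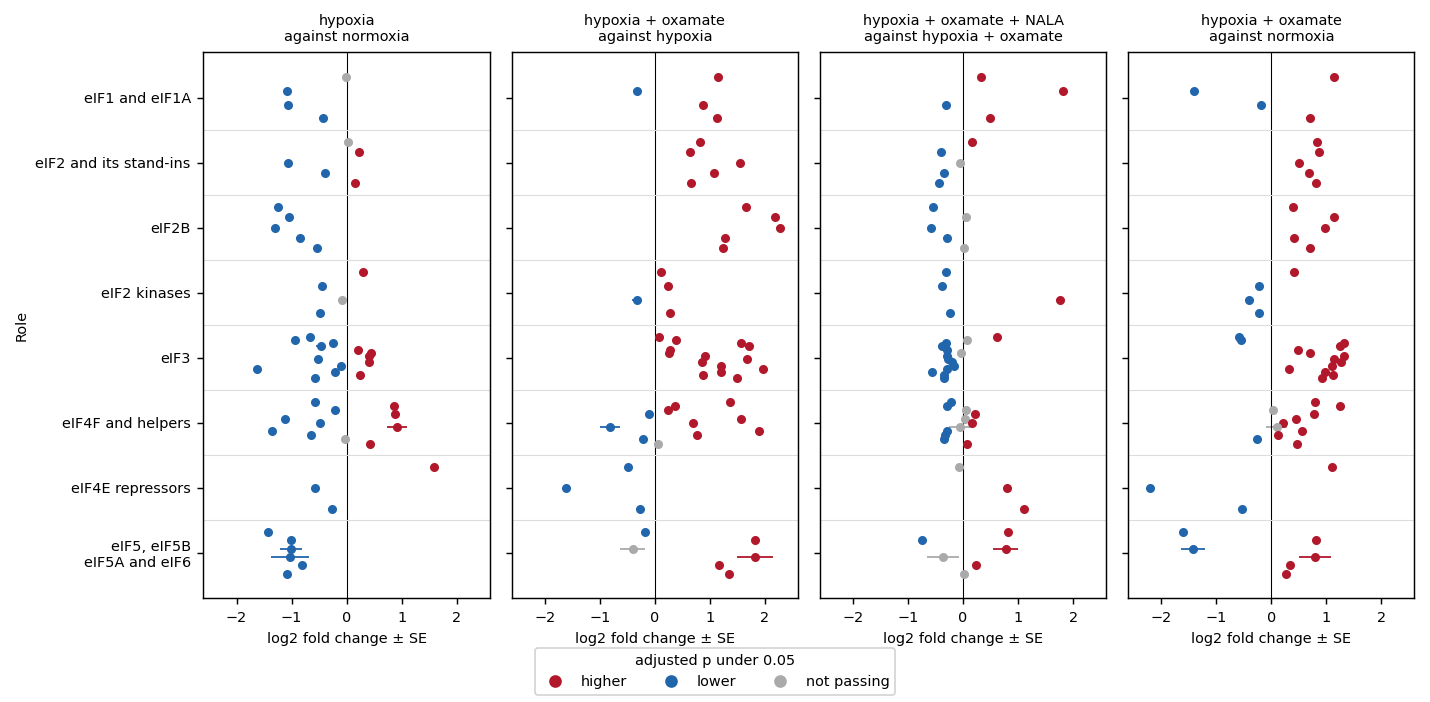
Log2 fold changes ± SE of 52 members in the 4 comparisons, grouped by role, with colour for direction at an adjusted p under 0.05. The 5 eIF2B subunits lie left of 0 in hypoxia and right of 0 with oxamate, and all 14 eIF3 subunits lie right of 0 with oxamate. With NALA 14 members are higher and 27 lower, and only EIF1AD, EIF2AK3 and EIF4ENIF1 reach a 2-fold change. EIF4EBP3 and EIF2S3B, both under 1 CPM, are not drawn.

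Other proteins of initiation, outside the EIF symbols, went both ways. Of 25 tested, 11 rose and 13 fell in hypoxia (median -0.13), 16 rose and 8 fell with oxamate (median 0.42), and 12 rose and 10 fell with NALA (median 0.07). PDCD4, which sequesters eIF4A, rose in hypoxia (1.68), fell with oxamate (-2.72) and rose with NALA (1.13). PAIP2B, an inhibitor of the poly(A)-binding protein, rose in hypoxia (1.78), while ABCE1, which recycles ribosomes, and DOHH, the second enzyme of hypusine synthesis on eIF5A, fell (-1.76 and -1.53). DOHH and DHX29, a helicase of scanning ribosomes, had the largest rises with oxamate (2.00 and 2.09). DDX3X, a helicase that aids structured leaders, fell with oxamate (-1.45) and rose 2.82-fold with NALA, as GIGYF2, the partner of EIF4E2, also did (log2 1.56). ABCE1 and PABPC4 fell most with NALA (-0.67 and -0.44). Against normoxia, oxamate raised PABPC1 and DHPS most (1.15 and 1.09) and lowered DDX3X and LARP1 most (-2.37 and -1.39).

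Most elongation factors, which act in the next step, rose with oxamate. Of the 11 tested, 4 rose in hypoxia (36.4%, against 36.7% of all tested genes) and 6 fell (54.5%, against 36.8%), with a median of -0.25. With oxamate 10 rose (90.9%, against 35.7%, median 1.16), and with NALA all 11 fell (against 31.7% of all genes, median -0.30). EEF2 and EEF1A1, the main cytosolic factors, rose in hypoxia (0.78 and 0.73) and were higher with oxamate than in normoxia (1.60 and 1.36). EEF2K, the kinase of EEF2, passed as lower in that last comparison (-0.15), but was at 0.02 without oxamate replicate 1. GFM1, a mitochondrial factor, and EEF1E1, of the multisynthetase complex, fell in hypoxia (-1.59 and -1.55) and rose most with oxamate (1.70 and 1.79). The largest falls with NALA were those of the mitochondrial GFM1 and TSFM (-0.77 and -0.54). MYC, a transcription factor known to drive initiation factor genes, fell in hypoxia (-0.96), rose with oxamate (1.71) and rose with NALA (1.60), and its partner MAX fell in hypoxia (-0.96) and rose with oxamate (0.41).

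Because members split in hypoxia, the first bases of their transcripts were read from RefSeq (GRCh38.p14), where 45 of the 54 tested members had a listed start. No entry was found for EIF2AK1, EIF2S2, EIF3A, EIF3CL, EIF3E, EIF3G, EIF3H, EIF3L and EIF4EBP1. Many mRNAs of the translation machinery begin with a cytosine and an unbroken run of pyrimidines, the 5′ terminal oligopyrimidine, through which mTORC1 and LARP1 regulate their translation. A start counted as such when the listed first base was C and at least 5 pyrimidines ran from it. Each window below holds 30 bases before the start and 20 from it on, 5′ to 3′ on the gene's strand. The 6 members with such a start that rose in hypoxia come first and then EIF3K and EIF3M, which have such a start and fell, all with the run in capitals. Of the members with another start, EIF4H, which rose, and the abundant EIF4A1 and EIF5A, which fell, have only the first transcribed base in capitals.
EIF4B: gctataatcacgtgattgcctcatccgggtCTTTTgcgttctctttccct
EIF4A2: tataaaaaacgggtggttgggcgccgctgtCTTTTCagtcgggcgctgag
EIF3F: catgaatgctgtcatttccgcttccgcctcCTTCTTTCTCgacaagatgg
EIF3D: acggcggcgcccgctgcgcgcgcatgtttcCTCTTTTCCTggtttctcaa
EIF2S3: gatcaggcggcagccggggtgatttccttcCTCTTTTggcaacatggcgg
EIF2D: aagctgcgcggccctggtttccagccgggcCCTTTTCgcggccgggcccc
EIF3K: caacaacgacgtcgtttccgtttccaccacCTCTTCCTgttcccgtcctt
EIF3M: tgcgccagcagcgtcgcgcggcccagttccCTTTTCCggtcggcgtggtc
EIF4H: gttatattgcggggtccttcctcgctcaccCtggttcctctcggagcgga
EIF4A1: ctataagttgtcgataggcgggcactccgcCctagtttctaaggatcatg
EIF5A: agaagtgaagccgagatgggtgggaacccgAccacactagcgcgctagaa

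These windows lie at chr12:53006426-53006475 (EIF4B, plus strand), chr3:186783547-186783596 (EIF4A2, plus), chr11:7987307-7987356 (EIF3F, plus), chr22:36529147-36529196 (EIF3D, minus), chrX:24054926-24054975 (EIF2S3, plus), chr1:206612446-206612495 (EIF2D, minus), chr19:38619158-38619207 (EIF3K, plus), chr11:32583801-32583850 (EIF3M, plus), chr7:74174326-74174375 (EIF4H, plus), chr17:7572795-7572844 (EIF4A1, plus) and chr17:7306969-7307018 (EIF5A, plus). In all, 10 of 45 members (22.2%) had such a start, against 573 of 10564 tested genes with an entry (5.42%). They were EIF2A, EIF2D, EIF2S3, EIF2S3B, EIF3D, EIF3F, EIF3K, EIF3M, EIF4A2 and EIF4B. In hypoxia 6 of the 10 rose, 2 fell (EIF3K and EIF3M) and 2 did not pass, with a median of 0.22. Among the 35 members with another start 2 rose (EIF4H and EIF4E3), 29 fell and 4 did not pass, with a median of -0.64. Members without an entry are in neither class. Of these, EIF2AK1, EIF3E, EIF3H, EIF3L and EIF4EBP1 rose in hypoxia, and EIF2S2, EIF3A, EIF3CL and EIF3G fell.

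Over all tested genes in hypoxia, 48.52% of the 573 rose and 30.02% fell (median 0.18), and 36.6% of the 9991 others rose and 42.0% fell (median -0.05). With oxamate against hypoxia, 8 of the 10 rose and 1 fell (median 0.65), and 26 of the 35 rose and 7 fell (median 1.15). The order of the medians was the reverse over all tested genes, with 0.25 for the 573 (52.7% higher) and -0.13 for the others (39.0% higher). With NALA 2 of the 10 rose and 7 fell (median -0.29), and 11 of the 35 rose and 14 fell (median 0.02), beside medians of -0.19 and -0.01 over all tested genes. The grouping was made with hypoxia values known, so these are descriptions without a test. A listed start is 1 position per gene, and the start used in KYSE150 was not measured. The 20 bases from the listed start of EIF2D were in no GENCODE 29 transcript of that gene.

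**Figure D5:**
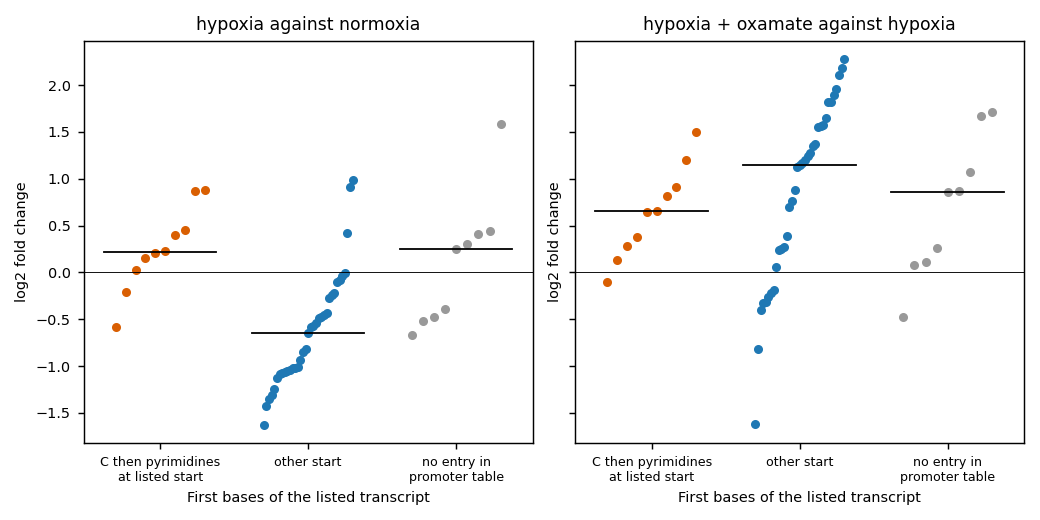
Log2 fold changes of the 54 tested members by the first bases of the listed transcript, in hypoxia against normoxia (left) and with oxamate against hypoxia (right), 1 point per member with a line at the median. On the left the pyrimidine starts have a median of 0.22 and the other starts -0.64, and on the right the medians are 0.65 and 1.15.

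Promoters of the matched members were also searched, over the 250 bases before the listed start, on both strands. CACGTG, the E-box bound by MYC and MAX, was present in 12 of 45 members (26.7%), 8.83% of tested genes and 6.34% of all 35116 listed promoters. The shorter ACGTG, which lies inside it and is also the core of the hypoxia response element together with GCGTG, was present in 17 (37.8%), against 23.3% of tested genes. GCGTG was present in 22 (48.9%), against 45.2%. EIF4E, EIF4G1 and EIF5A2, the last of which did not pass with oxamate, each carried a pair of E-boxes, the most in any member, shown in capitals in the stretches that hold them.
EIF4E: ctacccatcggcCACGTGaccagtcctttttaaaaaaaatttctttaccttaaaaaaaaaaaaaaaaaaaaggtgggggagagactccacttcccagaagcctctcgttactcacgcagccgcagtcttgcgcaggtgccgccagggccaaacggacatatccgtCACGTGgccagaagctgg
EIF4G1: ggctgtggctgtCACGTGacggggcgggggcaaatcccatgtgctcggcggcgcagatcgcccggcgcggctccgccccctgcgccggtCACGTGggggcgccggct
EIF5A2: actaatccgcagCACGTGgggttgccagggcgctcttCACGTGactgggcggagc

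The EIF4E stretch is chr4:98929188-98929370 on the minus strand, the EIF4G1 stretch chr3:184314450-184314556 on the plus strand and the EIF5A2 stretch chr3:170908782-170908836 on the minus strand, all read 5′ to 3′ on the gene's strand. In hypoxia 3 of 12 with it rose and 8 fell (median -0.32), and 5 of 33 without it rose and 23 fell (median -0.57). Over all tested genes 35.7% with it rose and 44.8% fell, and 37.4% without it rose and 41.0% fell. With oxamate 9 of 12 with it rose and 1 fell (median 1.02), and 25 of 33 without it rose and 7 fell (median 0.82). Over all tested genes 43.7% with it rose and 43.0% fell (median -0.01), and 39.3% without it rose and 45.1% fell (median -0.12). A match gives letters in a window and was not measured as a binding site.

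Some values carry a limit from the counting. No source used here gives strandedness, and 12 members share exon bases with a gene at 10% or more of their level, EIF4EBP3 on the same strand and the rest on the opposite one. For EIF1AD the partner is BANF1 (2.95% of EIF1AD exon bases, at 619% of its level), which changed by -0.51 with NALA where EIF1AD rose. EIF3J overlaps SPG11 (5.85% of exon bases), which changed by 0.88 in hypoxia where EIF3J fell. EIF2AK1 overlaps AIMP2 (9.59%), which changed by -2.03 in hypoxia and 2.17 with oxamate. EIF2B1 overlaps DDX55 (14.8%), which moved the same way in hypoxia (-0.68) and with oxamate (0.69). The others were EIF2AK2, EIF2B4, EIF5A, EIF2S1, EIF2A, EIF5B and EIF4ENIF1. With oxamate against hypoxia, the partner SERP1 (72.0% of the level of EIF2A) changed by 0.95 and EIF2A by 0.82. GPS2 changed by 1.51 there and EIF5A by 1.82. ATP6V1D rose with EIF2S1, and SFI1 fell with EIF4ENIF1. REV1 and GPATCH11 fell where EIF5B and EIF2AK2 rose. How much of these changes came from shared bases was not tested.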

How the data were processed

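The authors deposited 1 table of raw read counts per gene, whole numbers without normalization, for 8 libraries. The submitters' processing notes name FastQC 0.11.9, STAR 2.7.8a and RSEM 1.3.3, with hg38 and GRCh38 as builds and no role for any of them, so the counts may be rounded RSEM estimates. The annotation release, strand setting and any filter were not given in the sources used here. Columns were matched to samples by the names in the labels.

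Genes were kept by filterByExpr (minimum count 10), scaled by TMM (factors 0.879 to 1.15) and fitted over 4 group means with edgeR 4.0.16 (robust quasi-likelihood, limma 3.58.1, R 4.3.3). P-values were two-sided and adjusted by Benjamini-Hochberg over 15554 genes. DESeq2 1.42.0, other scalings, filters and libraries left out served as alternatives. A paired fit added the replicate number as a block. The procedure was also run on simulated data, and no outcome is given here, so the run is no evidence for the calls. Replicates differed beyond counting noise, with chi-square per degree of freedom of 1.82 to 4.36. Positions and exon lengths are from GENCODE 29 and promoters from RefSeq GRCh38.p14.

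Members and lists were chosen with earlier results of these data known. Values in each library are given for the kinases, the 4E-BPs, the 3 members of each role with the widest range of group means, and paralog pairs. From each other list the 2 largest passing changes in each direction are named, with ATF4, DDIT3, PPP1R15A, PPP1R15B, PDCD4 and MYC.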

Additional observations from a re-analysis of the deposited data

How the results depend on the processing

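Calls near 0 depended on scaling. With oxamate against hypoxia, EIF2AK1, EIF2AK2, EIF2AK4, EIF3A, EIF3D, EIF3E and EIF4A3 passed as higher. Each took a smaller share of total counts with oxamate than in hypoxia. The median log2 change of all genes with NALA was -0.02 with TMM and -0.21 with upper quartile scaling. With NALA 14 members rose and 27 fell under TMM, 9 and 37 under upper quartile scaling, and 10 and 32 under a filter of at least 50 counts in 2 libraries. Tested against a fold of 1.5, members higher and lower were 4 and 18 in hypoxia, 32 and 1 with oxamate, 5 and 1 with NALA and 25 and 4 with oxamate against normoxia. DESeq2 gave 5 lower with oxamate against hypoxia, where edgeR gave 9. Over libraries left out one at a time, members higher and lower were 13 and 34 to 35 in hypoxia, 40 to 43 and 3 to 9 with oxamate, 9 to 16 and 27 to 30 with NALA, and 37 to 39 and 10 to 12 with oxamate against normoxia. The 9 lower with oxamate became 4 without oxamate replicate 1 and 3 without oxamate replicate 2, and the 14 higher with NALA became 9 and 10 without the same libraries. The cause was not tested.

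Replicate numbers are shared between groups, and same-numbered libraries showed no common deviation over all genes (correlations from -0.05 to 0.01). With 2 libraries per group, this cannot decide whether the numbers pair the samples. With a replicate block the counts were 13 and 35 in hypoxia, 42 and 9 with oxamate, 14 and 27 with NALA and 39 and 12 against normoxia, and no call of a member changed.

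Values that turned direction were small, apart from EIF4EBP3 with its few counts, but some passed. With upper quartile scaling EIF1 passed as higher in hypoxia, and EIF2B2, EIF4E and EIF4H passed as lower with NALA. In hypoxia, upper quartile scaling gave 0.0966 for EIF1, 0.0292 for EIF2AK3, 0.0698 for EIF4G3 and 0.00192 for EIF3I, and the stricter filter 0.0360 for EIF1 and 0.00921 for EIF4G3. With NALA, upper quartile scaling gave -0.136 for EIF2B2, -0.158 for EIF4E, -0.0346 for EIF2A, -0.0366 for EIF4E2 and -0.123 for EIF4H, and the stricter filter -0.0621 for EIF2B2, -0.0837 for EIF4E and -0.0496 for EIF4H. RLE size factors gave -0.000819 for EIF2B2 and -0.0224 for EIF4E, and DESeq2 -0.00121 and -0.0231. With oxamate EIF4B had 0.00572 in the 2 groups alone. Leaving out 1 library at a time, the hypoxia values ran between -0.00487 and 0.0397 for EIF2A, -0.184 and 0.0189 for EIF2AK3 and -3.92 and 4.88 for EIF4EBP3. EIF4B with oxamate ran between -0.109 and 0.0257. With NALA the ranges were -0.0451 to 0.0888 for EIF2B2, -0.168 to 0.0158 for EIF2S1, -0.116 to 0.0680 for EIF4E, -0.300 to 0.129 for EIF4E3 and -0.0401 to 0.0763 for EIF4H. With oxamate against normoxia they were -0.0179 to 0.325 for EIF4E3 and -0.204 to 0.0247 for EEF2K, the kinase of EEF2.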
